A study of Mus musculus with 4 samples.

Results

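Heat shock proteins are chaperones, proteins that help other proteins fold and keep damaged ones from clumping, and several of their genes are switched on within minutes by heat, toxic stress or rough handling of tissue. The genes described here are the 9 members Hspa1a, Hspa1b, Hspa8, Hspb1, Dnajb1, Hsp90aa1, Hsp90ab1, Hspe1 and Hspd1, taken as the rows of the 4 count matrices whose gene symbol matched, out of 31053 genes. Each symbol matched 1 row in every matrix. The matrices come from 10x Genomics single-cell RNA sequencing of a mouse salivary gland, the submandibular gland. Before capture, epithelial cells and red blood cells were depleted with antibody-bound beads (EpCAM and Ter119) and dead cells were removed, which leaves a suspension enriched for stroma.

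All animals were female C57BL6/J mice. The 2 deligated libraries came from mice aged 14 weeks whose main gland ducts had been clipped shut for 14 days and reopened for 5 days. The 2 homeostatic libraries came from unoperated mice aged 12 weeks. Age and surgery therefore differ together and cannot be told apart. All tissue was digested with liberase, DNase I and dispase at 37 °C for 15 and then 5 minutes before it was put on ice, so every value below is a level after warm digestion and no undigested sample was analysed here. The labels do not state how many animals gave each library, and p-values measure only the spread between these libraries.

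In the resting cell, the heat shock transcription factor Hsf1 is held inactive by chaperones. When misfolded proteins occupy those chaperones, Hsf1 is freed, binds repeats of the unit GAA and its complement TTC in promoters, and raises transcription of the inducible members. Hspa1a and Hspa1b encode the inducible Hsp70, Dnajb1 its Hsp40 cochaperone, Hspb1 the small heat shock protein Hsp27 and Hsp90aa1 the inducible form of Hsp90, whereas Hspa8 and Hsp90ab1 are the constitutive forms. Hspd1 and Hspe1 form the folding chamber of the mitochondrial matrix and its lid. Endothelial and smooth muscle cells are known for a high content of Hsp27, which binds to and steadies actin filaments.

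The sequences below show the Hsf1-type repeats in the promoters of the inducible members whose levels are described later. They were read from RefSeq promoter windows on GRCm38.p6 that run from 250 bases before the start site to 50 bases after it. Positions are counted from the start site, the base before it being -1, and each line runs 5′ to 3′ on the gene's strand. Capitals mark every base that belongs to the motif GAANNTTC or TTCNNGAA, each of which reads the same on both strands. The Hspa1a stretch is chr17:34972242-34972271 on the minus strand, at positions -115 to -86. The Hspa1b stretch is chr17:34959324-34959353 on the minus strand, at the same positions. The Hspb1 stretch is chr5:135887801-135887830 on the plus strand, at positions -118 to -89. The Hspe1 stretch is chr1:55088053-55088082 on the plus strand, at positions -95 to -66, inside the region from which Hspd1 is read in the other direction.
Hspa1a: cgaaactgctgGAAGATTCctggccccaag
Hspa1b: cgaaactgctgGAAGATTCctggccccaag
Hspb1: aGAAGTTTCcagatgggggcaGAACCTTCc
Hspe1: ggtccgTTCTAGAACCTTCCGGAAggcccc

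The stretches of Hspa1a and Hspa1b are the same letter for letter, and the whole 300-base windows differ at 4 bases. Hspb1 holds 2 separate copies of the motif. In Hspe1, 3 overlapping copies form a run that also matches the longer motif of 3 alternating GAA and TTC units, each 2 bases from the next, searched on both strands. The longer motif contains the short one. The short motif was present in 15.1% of 32851 promoter windows of the table and the longer one in 0.603%, so the short motif alone is common. Of the 9 members, 6 had a promoter entry, and 5 of those 6 held the short motif in at least 1 window. Hspd1 and Hspe1, which share their upstream region, also held the longer one. Dnajb1 had no match in its windows, and Hspa8, Hsp90aa1 and Hsp90ab1 had no entry. A match describes these letters and is not evidence of binding.

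The matrices hold 35662241 to 53898793 UMIs per library, a UMI (unique molecular identifier) being an estimate of 1 captured RNA molecule. A barcode of the deligated libraries had a median of 6075 and 5278 UMIs, and one of the homeostatic libraries 2912.5 and 2765.5. Between 14 and 54 cell barcodes were shared by any pair of libraries. Clustering without the members and without other stress genes gave 9 classes named by resemblance to fixed markers, such as endothelial-like or NK/innate lymphoid-like (natural killer and related cells), besides an erythroid-like class and unnamed clusters. Unnamed clusters held 8 and 52 cells of the deligated libraries against 3341 and 3608 of the homeostatic ones. Within a class, most clusters were made almost wholly of 1 group: 2516 of the 2520 cells of the largest deligated NK/innate lymphoid-like cluster were deligated, for example. Only whole classes were therefore compared, and fewer cells of a state and less RNA per cell cannot be told apart within them.

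The recorded version of the counting software differs between the groups in all comparisons, and whether introns were counted is not given in the sources used here. The file headers name Cell Ranger 6.0.1 for the deligated and 7.0.0 for the homeostatic libraries, so that the effects of version and group cannot be told apart. Genes with more than 100 kb of annotated intron had median log2 fold changes, deligated over homeostatic, of -1.38 in NK/innate lymphoid-like and -0.84 in endothelial-like cells, while genes with at most 2 kb had medians of 0.34 and 0.22. The members are short genes with 0 to 8193 bases of intron, and Hspa1a and Hspa1b have none. Each comparison was therefore also run with library sizes taken only from genes with at most 2 kb of intron, called low-intron scaling here. It moves the median log2 fold change of all genes from 0.02 to -0.34 in T cell-like and from 0.01 to -0.14 in mural-like cells, the largest and smallest shifts of the 5 classes. Salivary epithelial markers also differed in every tested class. Their summed level was 41.4 to 260 CPM (UMIs of a gene per 1e6 UMIs of a class in a library) in deligated and 840 to 1775 CPM in homeostatic libraries, and their part in the results was not tested. The median share of mitochondrial UMIs in endothelial-like cells was 3.01% and 2.72% in deligated and 2.06% and 2.19% in homeostatic libraries, and its part was not tested either.

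Hspa1a, the first of the paired inducible Hsp70 genes (chr17:34969190-34972156, GRCm38, minus strand, 1 exon), was highest in macrophage-like cells. Its level there was 131 and 156 CPM in the deligated and 124 and 126 CPM in the homeostatic libraries, with no overlap with the class ranked next in either group. Endothelial-like cells followed among the large classes, at 98.0 and 109 CPM in deligated and 64.3 and 63.7 CPM in homeostatic libraries. NK/innate lymphoid-like cells were the lowest of the classes tested, at 25.4 and 14.1 CPM against 8.73 and 9.50 CPM. Homeostatic epithelial-like cells were lower still, at 5.05 and 6.61 CPM. Mural-like cells (pericytes and smooth muscle), fibroblast-like cells and T cell-like cells lay between, from 29.6 to 67.4 CPM, and fibroblast-like and T cell-like levels overlapped in both groups.

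Hspa1b (chr17:34956436-34959238, minus strand, 1 exon) had the same class at the top. Macrophage-like cells were at 172 and 110 CPM in deligated and 57.1 and 76.4 CPM in homeostatic libraries. The endothelial-like levels were 64.4 and 54.0 CPM against 28.3 and 27.9 CPM. Every deligated library exceeded every homeostatic library in macrophage-like cells and in each of the 5 classes large enough to test, which had at least 100 cells in every library. Macrophage-like cells were not tested, because the deligated libraries held 35 and 90 of them. The deligated macrophage-like levels rest on few cells: in deligated 1 a single cell held 23 of the 51 UMIs of Hspa1a and Hspa1b together and 4 cells held 78.4%, and in deligated 2, 7 cells held 64.7% of 116.

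**Figure D1:**
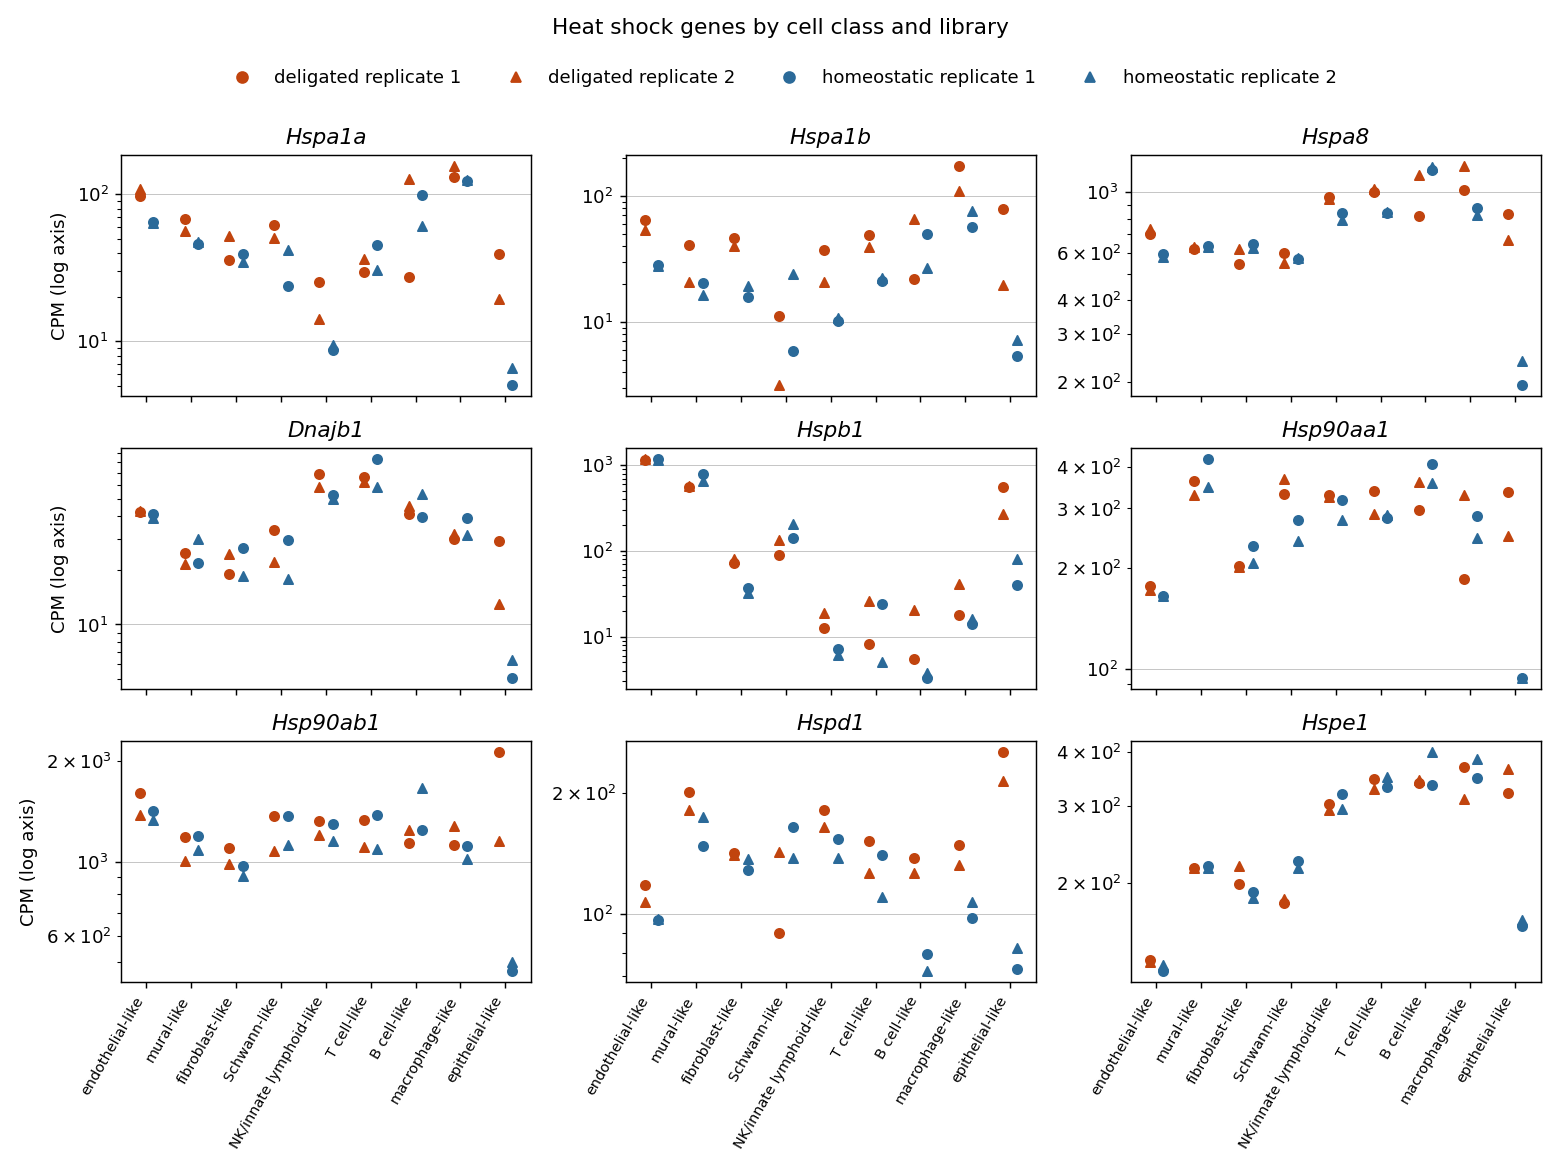
Level of each heat shock gene by cell class, in CPM of the summed UMIs on a log axis, 1 panel per gene. Each point is 1 library (circle, replicate 1; triangle, replicate 2; red, deligated; blue, homeostatic). Hspb1 spans from 3.32 CPM in B cell-like cells to above 1100 CPM in endothelial-like cells, whereas Hsp90ab1 stays near 1000 CPM in most classes. Erythroid-like and unnamed cells are not drawn. Classes with few cells, such as the B cell-like and Schwann-like ones, scatter widely.

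Dnajb1, the Hsp40 partner that hands substrates to Hsp70, had another order of classes. T cell-like cells had 66.3 and 62.0 CPM in deligated and 83.3 and 58.2 CPM in homeostatic libraries, and NK/innate lymphoid-like cells 68.8 and 58.4 against 52.6 and 50.0 CPM. Fibroblast-like cells had 19.2 and 24.8 against 26.7 and 18.6 CPM. The NK/innate lymphoid-like class, with the least Hspa1a of the tested classes, was thus among those with the most Dnajb1. Among the tested classes Hspa8, the constitutive Hsp70 (chr9:40800984-40810087, plus strand), was likewise higher in the lymphocyte ones. It had 790 to 1027 CPM in NK/innate lymphoid-like and T cell-like cells against 543 to 733 CPM in endothelial-like, mural-like and fibroblast-like cells. Macrophage-like cells, which were not tested, had 1022 and 1250 CPM in deligated and 878.5 and 822.7 CPM in homeostatic libraries. These levels overlapped the T cell-like ones in both groups. Over the 20 sums of the 5 tested classes and 4 libraries, log2 levels of Hspa8 and Dnajb1 had a Pearson correlation of 0.846, and those of Hspa1a and Hspa8 one of -0.502. These sums share libraries and depth, and the coefficients are given as a description.

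Hspb1 (chr5:135887919-135889563, plus strand) was highest in the endothelial-like class in both groups. Endothelial-like cells had 1141, 1169, 1184 and 1158 CPM in deligated 1 and 2 and homeostatic 1 and 2, in that order. Mural-like cells had 552 and 577 CPM in deligated and 791 and 661 CPM in homeostatic libraries. Schwann-like cells followed in homeostatic libraries, at 142 and 204 CPM. In deligated libraries the epithelial-like level of 556 and 270 CPM overlapped the mural-like one, and the 30 and 127 erythroid-like cells had 808 and 792 CPM. In fibroblast-like, macrophage-like, NK/innate lymphoid-like, T cell-like and B cell-like cells it was between 3.32 and 79.8 CPM. The endothelial-like levels of the groups overlapped, with a log2 fold change of 0.00 (95% interval -0.21 to 0.21).

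Hsp90ab1 was present throughout, at 908 to 1604 CPM in the 5 tested classes. Its replicates differed in a set way: replicate 1 was higher than replicate 2 in both groups and in all 5 classes, by 1.10 to 1.20 times in deligated and 1.06 to 1.26 times in homeostatic libraries. The labels do not say whether replicate numbers pair the libraries, so this is a description of 4 libraries. Hsp90aa1, the inducible Hsp90, was highest in mural-like cells among the tested classes, at 362 and 329 CPM in deligated and 421 and 348 CPM in homeostatic libraries. Of the tested classes the endothelial-like one was lowest, at 164 to 176 CPM.

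The mitochondrial pair also differed in order between its members. Among the tested classes Hspe1, the lid, was lowest in endothelial-like cells (125 to 132.5 CPM) and highest in T cell-like cells (328 to 349 CPM). Hspd1, the chamber, was lowest in the same endothelial-like cells (96.9 to 118 CPM), but by group means its highest tested class was the mural-like one, at 201 and 181 CPM in deligated and 148 and 175 CPM in homeostatic libraries. In homeostatic 1 the NK/innate lymphoid-like level of 154 CPM exceeded it. The genes lie head to head on chromosome 1 and overlap on opposite strands in the annotation, and whether counting used strand is not given in the sources used here. The log2 levels of Hspe1 and Hspb1 ran opposite over the 20 sums, with a Pearson correlation of -0.834.

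The main comparison asks how these levels differ between glands recovering from duct closure and unoperated glands. UMI counts of all cells of a class were added up for each library and tested with edgeR's quasi-likelihood test, Benjamini-Hochberg adjusted over all genes of the class at a threshold of 0.05. All 9 members passed the filter on low counts in all 5 tested classes. In NK/innate lymphoid-like cells 6 of the 9 were called higher in deligated libraries, where 18% of 11805 genes were called higher. In endothelial-like cells 3 of 9 were higher (12.7% of all genes), in T cell-like cells 2 (6.63%), in fibroblast-like cells 2 (8.75%) and in mural-like cells 0 (1.11%). No member was called lower in any class, while 27.4%, 22.1%, 15.8%, 18.4% and 6.59% of all genes were, in the same order. Among genes with at most 2 kb of intron, to which 5 members belong, the share called higher was larger, at 35.5% in NK/innate lymphoid-like and 21.4% in endothelial-like cells.

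Leaving out a library leaves 1 in its group, which is then assumed to vary like the other group, so counts from such fits support no call. Without deligated replicate 2 more members were called in endothelial-like, T cell-like and mural-like cells. Without either homeostatic library fewer were called in NK/innate lymphoid-like and T cell-like cells. With low-intron scaling of all 4 libraries the counts were smaller or the same. Of the members, 3 were called higher in NK/innate lymphoid-like cells (4.02% of all genes), 2 in endothelial-like cells (4.36%), 2 in fibroblast-like cells (2.31%) and 0 in T cell-like (1.57%) and mural-like cells (0.738%). The calls that remained were Hspa1a, Hspa1b and Hspb1 in NK/innate lymphoid-like cells, Hspa1a and Hspa1b in endothelial-like cells, and Hspa1b and Hspb1 in fibroblast-like cells. Called lower under this scaling were Hspe1 in NK/innate lymphoid-like, Hspa8 in fibroblast-like and Hspb1 in mural-like cells, where 41.7%, 29.3% and 9.55% of all genes were, against 25.7% in T cell-like and 31.9% in endothelial-like cells with no such member. With the trend with intron length removed from the fold changes, 2 members were called higher in NK/innate lymphoid-like (13.9% of all genes), 2 in endothelial-like (11.6%), 2 in fibroblast-like (8.34%) and 0 in T cell-like (4.72%) and mural-like cells (0.86%), and Hspe1 was lower in the first class, as were 17.6% of genes. DESeq2 called 5 (9.45%), 3 (8.49%), 2 (4.84%), 0 (2.81%) and 0 (0.779%) higher, in the same order. Hspa1b was therefore called higher under both scalings in 3 classes and Hspa1a and Hspb1 in 2 each, while the higher calls of Hspa8, Dnajb1 and Hspd1 were made with the usual scaling alone.

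**Figure D2:**
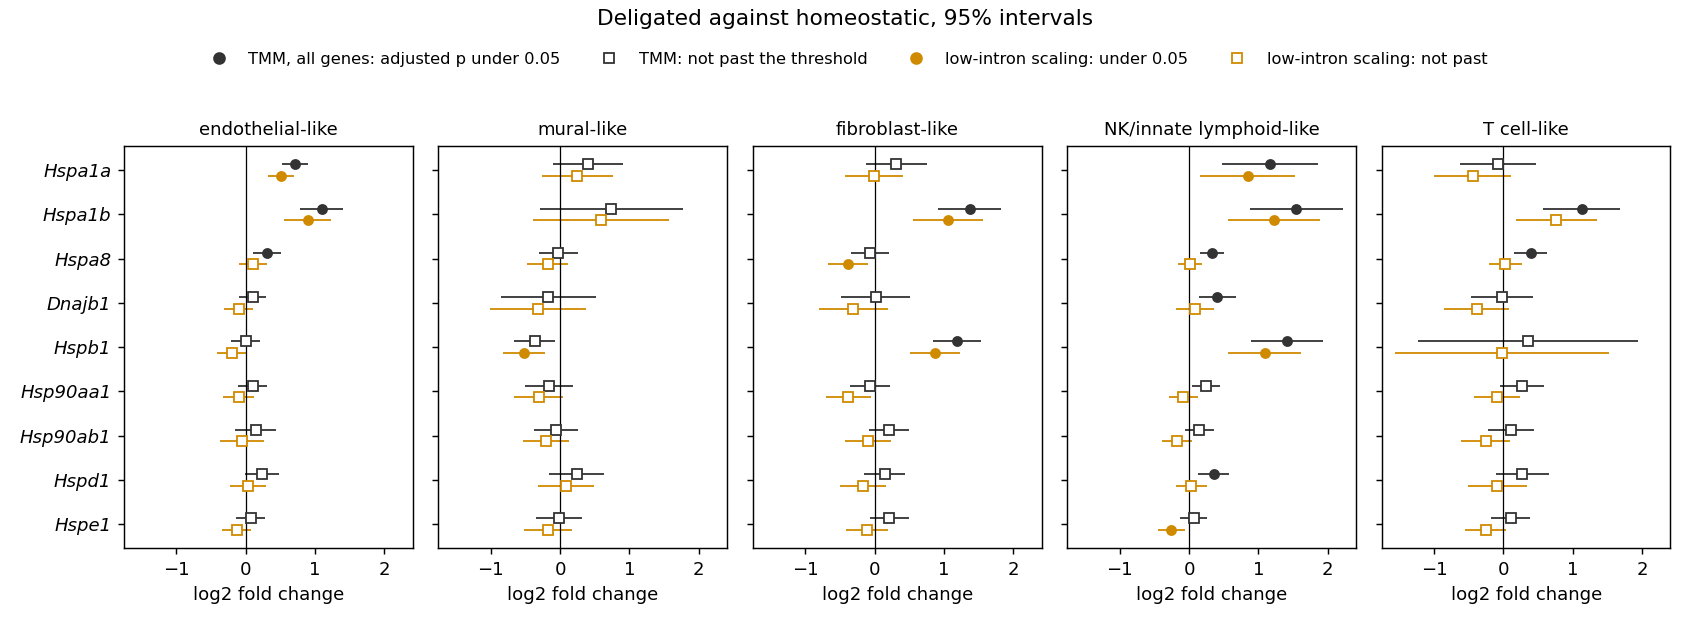
Log2 fold change of each heat shock gene, deligated over homeostatic, in 5 cell classes, with 95% intervals of the edgeR fit. Black marks use TMM scaling over all genes and orange marks low-intron scaling, filled circles are past an adjusted p of 0.05 and open squares are not. Hspa1b lies to the right of 0 in every panel, and every orange mark lies to the left of its black one.

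Hspa1b rose in 4 of the 5 classes. In endothelial-like cells its log2 fold change was 1.10 (standard error 0.13, adjusted p by edgeR = 0.0015), and 0.90 with low-intron scaling. In fibroblast-like cells, 46.7 and 40.2 CPM stood against 15.8 and 19.1 CPM, a log2 fold change of 1.37 (standard error 0.20, adjusted p by edgeR = 0.00051). After every cell was thinned to 1000 UMIs it was 0.61 there and not called (edgeR adjusted p = 0.37). In NK/innate lymphoid-like cells, 37.3 and 20.9 CPM stood against 10.1 and 10.7 CPM, a log2 fold change of 1.55 (standard error 0.29, adjusted p by edgeR = 0.0037). All deligated values lie above all homeostatic ones in these classes, although the deligated libraries differ from each other by 1.78 times in NK/innate lymphoid-like cells.

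The T cell-like result was less firm. There Hspa1b had 48.9 and 39.0 CPM against 21.3 and 22.5 CPM, a log2 fold change of 1.13 (standard error 0.24, adjusted p by edgeR = 0.013). Markers of NK/innate lymphoid cells summed to 2528 and 4766 CPM in the deligated and 1068 and 991 CPM in the homeostatic T cell-like class, all 12 being detected in each library, and their part in the result was not tested. The class also differed in make-up. Of its deligated cells, 1183 lay in a cluster led by Cd8b1, 205 in one with Il17a and 183 in one led by Il1rl1. The homeostatic cells, 389 of them, lay in a single cluster with Themis, Il1rl1 and Il7r among its leading genes. The part of make-up was not tested either. The Hspa1b value was 0.77 and not called with low-intron scaling (edgeR adjusted p = 0.056), and it was not called without homeostatic replicate 1 (1.07, edgeR adjusted p = 0.091) or with DESeq2 (1.14, adjusted p = 0.058). In mural-like cells 40.8 and 20.8 CPM stood against 20.4 and 16.4 CPM, with a log2 fold change of 0.74 (95% interval -0.29 to 1.77) that was not called. A single mural-like cell of deligated 1 held 54 of that library's 252 UMIs of Hspa1a and Hspa1b together, so the lone high value of that class rests in part on 1 cell.

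Hspa1a rose in endothelial-like cells, with a log2 fold change of 0.71 (standard error 0.08, adjusted p by edgeR = 0.0012), and in NK/innate lymphoid-like cells, with 1.17 (standard error 0.30, adjusted p by edgeR = 0.014). With low-intron scaling these were 0.51 and 0.85, both called, and the second was no longer called once the trend with intron length was removed (0.70, edgeR adjusted p = 0.11) or cells were thinned (1.00, edgeR adjusted p = 0.052). Without deligated replicate 1, the higher of the pair, the NK/innate lymphoid-like value was 0.72. In T cell-like cells the groups overlapped, with 29.6 and 36.5 CPM against 45.4 and 30.6 CPM, and in fibroblast-like cells they overlapped too, with 36.0 and 52.4 against 39.5 and 34.5 CPM. Neither of these was called, with 95% intervals of the log2 fold change of -0.63 to 0.47 and -0.12 to 0.75.

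Hspb1 was called higher in fibroblast-like and NK/innate lymphoid-like cells. In fibroblast-like cells, 72.4 and 79.8 CPM in deligated stood against 37.0 and 32.4 CPM in homeostatic libraries, a log2 fold change of 1.19 (standard error 0.16, adjusted p by edgeR = 0.00023). In NK/innate lymphoid-like cells, 12.5 and 19.1 CPM stood against 7.09 and 6.04 CPM, a log2 fold change of 1.41 (standard error 0.23, adjusted p by edgeR = 0.0018). Without removal of scored doublets these fell to 0.42 (edgeR adjusted p = 0.051) and 0.46 (edgeR adjusted p = 0.02), and after thinning the fibroblast-like call was lost (1.07, edgeR adjusted p = 0.051). In mural-like cells the deligated values lay below the homeostatic ones, with a log2 fold change of -0.37 that was not called with the usual scaling (edgeR adjusted p = 0.14) and of -0.52 that was called with low-intron scaling.

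Because endothelial-like and mural-like cells hold far more Hspb1 than these classes, their markers were read beside it. In NK/innate lymphoid-like cells all 12 endothelial markers were detected, with a summed level of 138 and 262 CPM in deligated and 202 and 150 CPM in homeostatic libraries, which overlap. The 12 mural markers summed to 55.9 and 90.0 CPM against 28.6 and 34.0 CPM, and the fibroblast markers to 68.3 and 225 CPM against 14.7 and 15.2 CPM. In fibroblast-like cells the endothelial markers summed to 245 and 381 CPM against 261 and 213 CPM, and the mural markers to 590 and 614 CPM against 406 and 400 CPM. Mural markers were thus higher in deligated libraries in both classes in which Hspb1 was called, as Hspb1 was, and their part in the result was not tested.

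The constitutive Hspa8 rose by smaller amounts. Its log2 fold change was 0.33 in NK/innate lymphoid-like (edgeR adjusted p = 0.0087), 0.39 in T cell-like (edgeR adjusted p = 0.030) and 0.31 in endothelial-like cells (edgeR adjusted p = 0.030), and with low-intron scaling it was 0.01, 0.03 and 0.11, none of them called. Without either homeostatic library none of these calls was made, at log2 fold changes of similar size (0.35 and 0.31 in NK/innate lymphoid-like, 0.36 and 0.45 in T cell-like, 0.31 and 0.30 in endothelial-like cells without replicates 1 and 2), and the T cell-like one was not made with DESeq2 (adjusted p = 0.092). In fibroblast-like cells, where the deligated values of 543 and 619 CPM lay below the homeostatic 644 and 622 CPM, it was -0.07 and not called, and -0.38 and called with low-intron scaling (edgeR adjusted p = 0.047). Dnajb1 and Hspd1 were called higher in NK/innate lymphoid-like cells alone, with log2 fold changes of 0.41 and 0.36, and both calls were lost with low-intron scaling (0.09 and 0.03) and without either homeostatic library. Hsp90aa1, Hsp90ab1 and Hspe1 were called in no class with the usual scaling, and their 95% intervals together ran from -0.50 to 0.58.

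Whether the group effect itself differed between classes was tested in a joint edgeR fit of the 5 classes with library as a term, in which 12.1% of 14755 genes were called. Of the members, 3 were called: Hspa8 (edgeR adjusted p = 0.0011), Hspb1 (edgeR adjusted p = 0.0052) and Hsp90aa1 (edgeR adjusted p = 0.030). Relative to endothelial-like cells, the log2 effect on Hspb1 was higher by 1.49 in NK/innate lymphoid-like and by 1.18 in fibroblast-like cells. That of Hspa8 differed by -0.38 in fibroblast-like and by 0.23 in T cell-like cells. Neither Hspa1a (edgeR adjusted p = 0.21) nor Hspa1b (edgeR adjusted p = 0.33) was called, so that a call in some classes and not in others is not shown to be a difference between them. With low-intron scaling Hspb1 alone was called (edgeR adjusted p = 0.0072). Without either homeostatic library no member was called, in fits that called far fewer genes of any kind.

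Hspa1a and Hspa1b share 99.6% of their coding bases, with 8 of 1926 differing, and 59.9% of 614 aligned bases after the stop codon. How reads that fit both copies were treated is not given in the sources used here, so the sum and the ratio of the copies were examined as well. The summed gene had 162 and 163 CPM in deligated and 92.6 and 91.5 CPM in homeostatic endothelial-like cells, a log2 fold change of 0.84 (standard error 0.08, adjusted p by edgeR = 0.00073). It was called higher in NK/innate lymphoid-like (1.40) and fibroblast-like cells (0.74, edgeR adjusted p = 0.0032) too, and not in T cell-like (0.48) or mural-like cells (0.51). With low-intron scaling, an alternative chosen after the data were seen, the endothelial-like (0.64) and NK/innate lymphoid-like (1.08) calls remained and the fibroblast-like one did not (0.43, edgeR adjusted p = 0.057). The neighbouring Hsp70 gene Hspa1l and the gene model Gm20481, which overlaps Hspa1a on the other strand, had at most 11 and 1 UMIs per library.

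The share of the pair's UMIs assigned to Hspa1a was lower in both deligated than in both homeostatic libraries in 4 of the 5 tested classes and in macrophage-like cells. In T cell-like cells it was 37.7% (95% exact interval 32.0 to 43.7, of 281 UMIs) and 48.4% (43.1 to 53.6, of 364) in deligated libraries. The homeostatic shares were 68.1% (56.0 to 78.6, of 72) and 57.7% (43.2 to 71.3, of 52). In fibroblast-like cells it was 43.5% and 56.6% against 71.4% and 64.4%, in macrophage-like cells 43.1% and 58.6% against 68.5% and 62.2%. In endothelial-like cells it was 60.3% and 66.8% against 69.4% and 69.5%, and in NK/innate lymphoid-like cells 40.5% and 40.4% against 46.4% and 47.1%. In mural-like cells the shares of 62.3% and 73.1% against 69.0% and 74.4% overlapped. Deligated 1 had the lower share of the deligated pair in 4 of the 5 tested classes. Intervals cover counting error only, and the part of the Cell Ranger version in how reads of the copies were assigned was not tested.

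**Figure D3:**
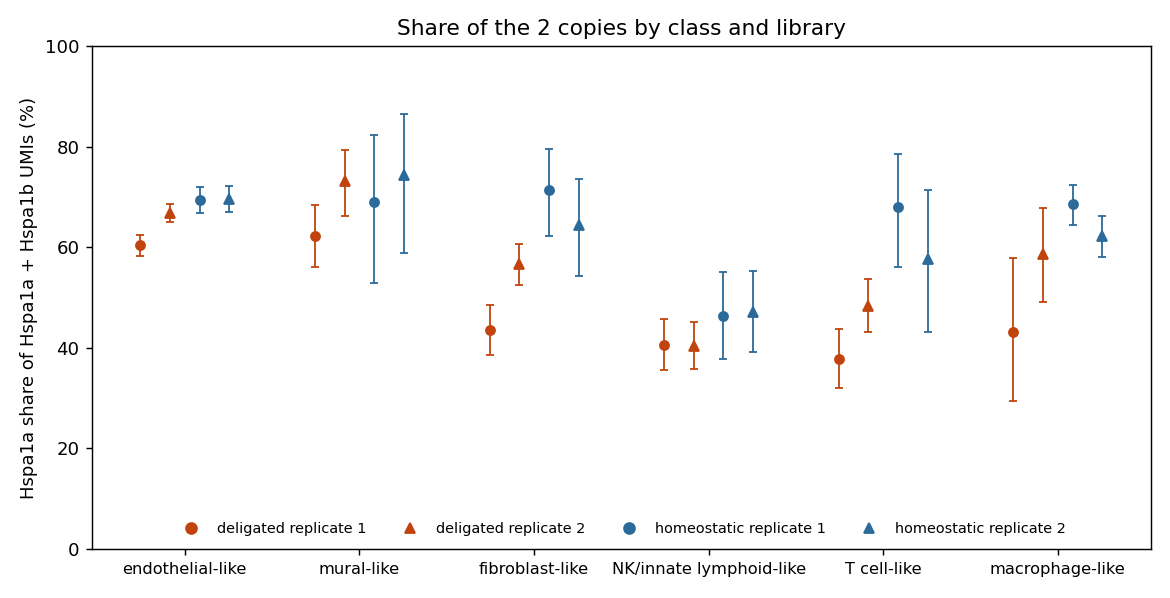
Share of Hspa1a among the UMIs of Hspa1a and Hspa1b, in percent, by class and library, with exact 95% intervals for counting error. Red points are deligated and blue points homeostatic libraries. The deligated points lie below the homeostatic ones in each class except the mural-like one, and the gap is widest in T cell-like and fibroblast-like cells.

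Hsp70 transcripts were unevenly spread over cells. In endothelial-like cells the 5% of cells with the most Hspa1a and Hspa1b UMIs held 38.4% and 42.9% of them in deligated and 45.4% and 47.6% in homeostatic libraries. For the abundant Hsp90ab1 the corresponding share lay between 16.4% and 18.3%, and a gene with few UMIs per cell is more concentrated by counting alone. Endothelial-like cells with at least 5 UMIs numbered 154 of 1896 and 161 of 3104 in deligated and 32 of 3419 and 29 of 3369 in homeostatic libraries. Median UMIs per endothelial-like cell were 5804 and 4388 against 3631 and 3630, which moves this count in the same direction.

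The same endothelial-like cells were then split, at an equal 1000 UMIs per cell, into those with and without a UMI of Hspa1a or Hspa1b. Fos, an AP-1 transcription factor gene that responds within minutes to many stimuli, was detected in 59.4% (95% exact interval 53.0 to 65.5) of cells with and 30.8% (28.6 to 33.1) without in deligated 1. In deligated 2 it was 57.4% against 47.0%, in homeostatic 1 41.6% against 29.4% and in homeostatic 2 41.6% against 27.8%. Jun, its partner, was likewise detected more often in cells with Hsp70 UMIs in all 4 libraries: 65.8% to 76.5% of cells with and 50.3% to 63.7% of cells without. Without thinning, Fos was detected in 72.2% to 89.0% of cells with and 41.0% to 61.4% of cells without. For Hspa8, Hsp90aa1 and Dnajb1 the thinned intervals of the 2 sets overlapped in every library. Without thinning all 3 were detected more often in cells with Hsp70 UMIs in every library, with intervals that did not overlap. A cell with more UMIs is likelier to show any gene, so the unthinned split, for Fos too, also sorts cells by depth. Hspa8 was detected in 52.6% of cells with and 46.2% without in deligated 1, and in 48.0% and 51.6% in deligated 2. Hsp90aa1 was detected in 13.2% to 15.9% of cells with and 13.7% to 15.4% without, and Dnajb1 in 3.22% to 4.94% and 3.36% to 3.88%. Unthinned values in deligated 1 were 97.0% against 84.8% for Hspa8, 73.2% against 49.0% for Hsp90aa1 and 32.5% against 16.9% for Dnajb1. At 1000 UMIs Hspa1b was detected in 15.9% of cells with and 5.85% without Hspa1a in deligated 1, and in 12.1% and 4.73% in deligated 2. The homeostatic shares of Hspa1b were 5.11% and 2.10% in replicate 1 and 9.82% and 2.53% in replicate 2. The thinned pattern of Fos differed between the other classes, where 6 to 59 cells per library held an Hsp70 UMI. In T cell-like cells Fos was detected in 34.15% of cells with and 31.95% without in deligated 1 and in 44.2% and 42.2% in deligated 2. The homeostatic shares there were 61.5% and 34.05% in replicate 1 and 50.0% and 38.5% in replicate 2. Mural-like cells had 45.45% and 26.4%, 28.6% and 31.9%, 38.5% and 12.0%, and 33.3% and 19.8%, in the same order of libraries. Jun was more often detected in cells with Hsp70 UMIs in all 4 libraries of both classes, but not of those below. In fibroblast-like cells Fos was detected in 16.7% of cells with and 27.9% without in deligated 1, in 25.0% and 28.7% in deligated 2, in 27.8% and 12.2% in homeostatic 1 and in 13.3% and 10.4% in homeostatic 2. In NK/innate lymphoid-like cells it was 32.5% and 29.7%, 37.3% and 33.7%, 11.1% and 17.6%, and 15.0% and 17.3%, in the same order of libraries. Hsp90aa1 in deligated NK/innate lymphoid-like cells was detected in 35.0% of cells with and 25.0% without in replicate 1, and in 39.0% and 26.6% in replicate 2. The homeostatic shares there were 27.8% and 23.5% in replicate 1 and 20.0% and 20.8% in replicate 2. Other classes went either way: Hsp90aa1 in mural-like cells had 40.9% and 21.4% in deligated 1 but 14.3% and 29.2% in deligated 2. Cells of 1 library are not replicates, and these shares are a description of 4 libraries.

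Apart from the members, other chaperones and stress genes were read from lists chosen with earlier results of these data known. Of the cytosolic chaperones and cochaperones, 10 of 30 tested were called higher and 2 lower in NK/innate lymphoid-like cells. Their median log2 fold change was 0.23, against 0.02 over all genes. In endothelial-like cells 4 of 31 were higher and 1 lower, in T cell-like cells 3 and 2 of 27, in fibroblast-like cells 2 and 0 of 30, and in mural-like cells none of 31. Of all genes, 18%, 12.7%, 6.63%, 8.75% and 1.11% were called higher in these classes, in the order given. The shares called lower were 27.4%, 22.1%, 15.8%, 18.4% and 6.59%. Hspa4, an Hsp110-type exchange factor for Hsp70, was lower in 3 classes, for instance 85.3 and 74.8 CPM against 242 and 235 CPM in T cell-like cells (log2 fold change -1.45, edgeR adjusted p = 0.00035). Bag3, a cochaperone and well-known Hsf1 target, was lower in NK/innate lymphoid-like cells, at 3.05 and 4.51 CPM against 10.1 and 8.48 CPM. Hspa4 and Bag3 have 35116 and 20804 bases of annotated intron, and the part of the Cell Ranger version in their lower levels was not tested. Serpinh1, the collagen chaperone Hsp47, was higher in fibroblast-like cells, at 1075 and 1055 CPM against 760 and 762 CPM, a call lost with low-intron scaling. With that scaling 3 of the list were higher and 7 lower in NK/innate lymphoid-like cells, where 4.02% and 41.7% of all genes were. In endothelial-like cells 0 were higher and 9 lower, where 4.36% and 31.9% of all genes were. That scaling lowers all genes alike.

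Of the TRiC chaperonin and prefoldin genes, 4 of 13 were higher in NK/innate lymphoid-like cells (18% of all genes) and at most 1 in any other class. None was called higher with low-intron scaling. Of 12 mitochondrial chaperones and proteases, at most 1 was called higher in any class. Hspa9, the mitochondrial Hsp70, was lower in NK/innate lymphoid-like cells (45.9 and 47.2 CPM against 70.9 and 60.6 CPM), where 27.4% of all genes were. It has 12634 bases of intron. Of 20 endoplasmic reticulum genes, 10 were higher and 3 lower in NK/innate lymphoid-like cells (18% and 27.4% of all genes). In fibroblast-like cells 1 was higher and 4 lower (8.75% and 18.4% of all genes). Sdf2l1 and Manf, secretory stress genes with 1138 and 50144 bases of intron, were among the lower ones there. With low-intron scaling 1 and 0 of these 20 were higher in the same classes (4.02% and 2.31% of all genes). Hsf1 itself was higher in NK/innate lymphoid-like cells (19.7 and 24.5 CPM against 16.0 and 14.8 CPM), a call that was also lost.

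The AP-1 and immediate early genes are given apart from the chaperones, and their shares can be set beside the 12.7%, 18%, 1.11%, 6.63% and 8.75% of all genes called higher in the classes as ordered here. In endothelial-like cells 17 of 22 were higher and 1 lower, in NK/innate lymphoid-like cells 16 and 2 of 22, in mural-like cells 11 and 0 of 19, in T cell-like cells 10 and 0 of 21, and in fibroblast-like cells 9 and 1 of 21. With low-intron scaling 15, 13, 10, 4 and 7 were higher, in the same order, where 4.36%, 4.02%, 0.738%, 1.57% and 2.31% of all genes were. Lower under that scaling were 1, 4, 0, 1 and 1, where 31.9%, 41.7%, 9.55%, 25.7% and 29.3% of all genes were. Egr1 in mural-like cells had 151 and 194 CPM against 23.6 and 41.8 CPM, and Dusp1, a phosphatase that ends MAP kinase signals, had 141 and 164 CPM against 34.6 and 33.5 CPM in NK/innate lymphoid-like cells. Mural-like cells thus had calls among AP-1 genes and none among the members. The genes called lower with the usual scaling were Fosl1 and Atf3, with 6367 and 45590 bases of intron. Dusp1 and Egr1, called higher, have 53228 and 678 bases. Fosl1 had 0.14 and 0.24 CPM in deligated against 5.69 and 7.02 CPM in homeostatic endothelial-like cells.

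**Figure D4:**
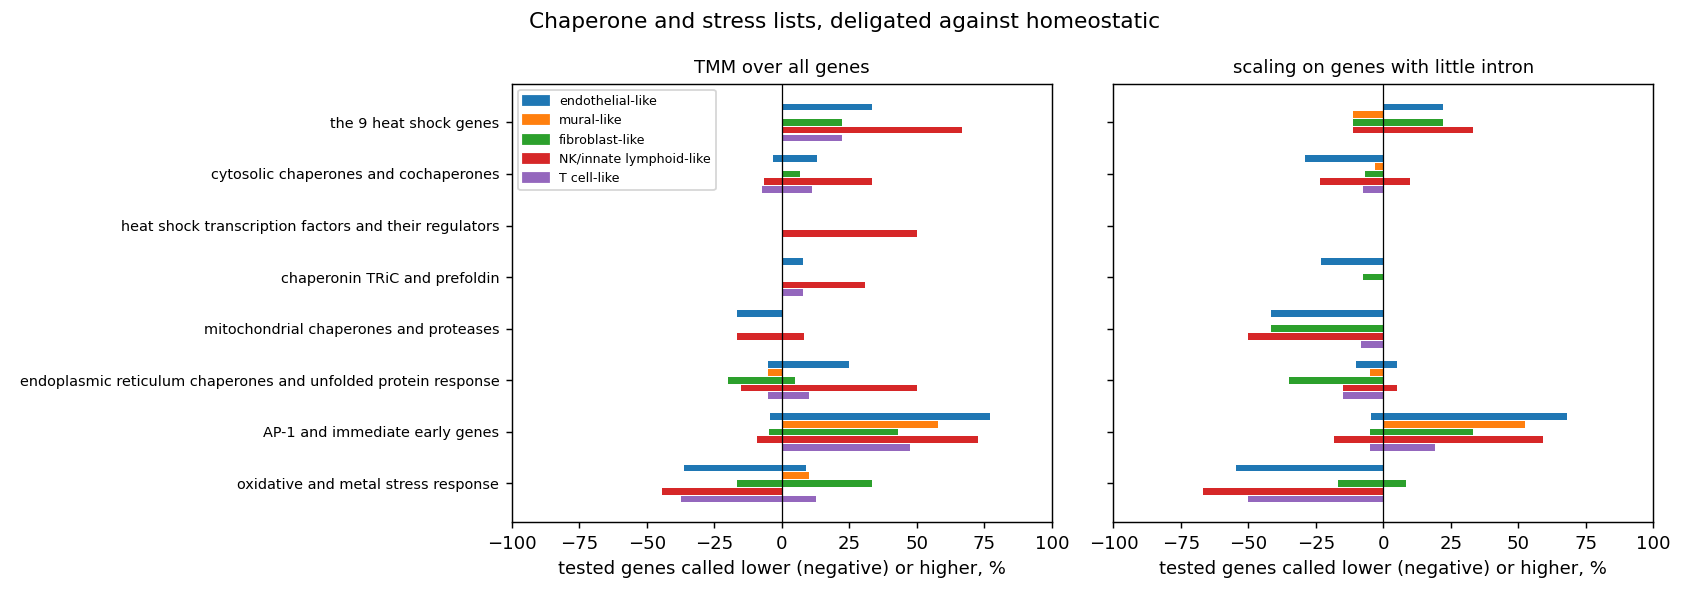
Share of the tested genes of each list called higher (bars to the right) or lower (bars to the left) in deligated libraries, in percent, by class, with TMM scaling over all genes (left panel) and with scaling on genes with little intron (right panel). The AP-1 list has bars to the right for every class in both panels, and shorter bars to the left for some classes. Most chaperone bars to the right in the left panel shorten or vanish in the right panel.

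Of the oxidative and metal stress genes, none of 9 was higher and 4 were lower in NK/innate lymphoid-like cells, where 27.4% of all genes were called lower, with 1 and 4 of 11 in endothelial-like, 1 and 3 of 8 in T cell-like, 4 and 2 of 12 in fibroblast-like and 1 and 0 of 10 in mural-like cells. In the other classes, in this order, 22.1%, 15.8%, 18.4% and 6.59% of all genes were called lower. The shares called higher there were 12.7%, 6.63%, 8.75% and 1.11%. Sqstm1, an autophagy receptor with 8106 bases of intron, was lower in NK/innate lymphoid-like cells, at 82.9 and 76.9 CPM against 307 and 293 CPM. The metallothionein Mt1, with 0 bases of intron, was lower in endothelial-like cells, at 9.15 and 12.0 CPM against 33.9 and 37.2 CPM. Mt1 was higher in mural-like cells, at 156 and 191 CPM against 110 and 101 CPM, a call lost with low-intron scaling. Hmox1, heme oxygenase, was higher in fibroblast-like cells, at 25.7 and 27.1 CPM against 8.40 and 13.8 CPM.

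By the rule for likeness, the 5 genes whose log2 levels over the 20 sums were most like those of Hspa1a and Hspa1b together, among 9541 genes, were Rnpepl1, Lyrm2, Ywhab, Txnip and Zhx1, with Pearson correlations of 0.911 to 0.869. For Hsp90ab1 they were Hmgn5, Myh9, Anp32a, Zfp524 and Hmgb3, with 0.908 to 0.862. No gene of the stress lists was among them. The points share libraries and depth, and the correlations are a description.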

How the data were processed

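Whole-number UMI counts per gene and cell barcode were deposited by the authors for 2 deligated and 2 homeostatic libraries. Per the file headers they were made with Cell Ranger 6.0.1 (deligated) and 7.0.0 (homeostatic). The submitters' processing notes name 6.0.1, mm10 and Seurat, and intron counting, strand and annotation are not given in the sources used here. Cells with at least 300 genes and at most 10% mitochondrial UMIs were kept, and the highest doublet scores were removed (0.8% per 1000 cells). Clustering used scanpy 1.11.5 (3000 variable genes without members and stress lists, 30 principal components, 20 neighbours, Leiden resolution 1.0). Clusters were named from marker genes, a name needing at least 3 markers. Counts of all cells of a class were added up for each library and tested with edgeR 4.0.16 (quasi-likelihood, TMM, filterByExpr) in R 4.3.3, with Benjamini-Hochberg adjustment over all genes and a threshold of 0.05. With 2 libraries against 2, an exact permutation test of a single value cannot go below p = 0.333 and was not used.

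Introns came from GENCODE M21 (GRCm38), which matched 31011 of 31053 genes. Sequences came from RefSeq tables. Alternatives were DESeq2 1.42.0, no low-count filter, each library left out, a replicate block, low-intron scaling, removal of the trend with intron length, stricter cell limits (1000 UMIs, 5% mitochondrial), thinning to 1000 UMIs, Leiden resolution 2.0, stress genes kept in clustering and no doublet removal. The members and lists were chosen with earlier results of these data known. All 9 members are named, and from each list and class at most the 2 called genes with the largest fold change in each direction. Genes of like pattern are the 5 with the highest Pearson correlation of log2(CPM + 1), among genes with a mean of at least 10 CPM. Between replicates the counts differed beyond sampling noise, with a mean chi-square per gene of 1.94 to 3.53 in homeostatic and 10.3 to 45.5 in deligated libraries, so none was a duplicate. The tests were tried on simulated data.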

Additional observations from a re-analysis of the deposited data

Results flagged for a closer look

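For 3 members the difference between deligated and homeostatic libraries was itself different between cell classes in the joint edgeR fit: Hspa8 (adjusted p = 0.0011), Hspb1 (adjusted p = 0.00521) and Hsp90aa1 (adjusted p = 0.0299). Hspa8 had log2 fold changes of 0.39 (T cell-like), 0.33 (NK/innate lymphoid-like) and 0.31 (endothelial-like), calls that were lost with low-intron scaling, against -0.07 (fibroblast-like) and -0.02 (mural-like). The log2 effect on Hspb1 in mural-like cells was below that in endothelial-like cells by a difference of -0.31. For Hsp90aa1 the difference from endothelial-like cells was -0.21 in mural-like, -0.17 in fibroblast-like, 0.21 in NK/innate lymphoid-like and 0.31 in T cell-like cells. With low-intron scaling the test called Hspb1 alone.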

How the results depend on the processing

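Counts of members called higher changed as follows. With DESeq2 they were 0 in T cell-like cells. With the trend with intron length removed they were 2 in NK/innate lymphoid-like and 0 in T cell-like cells, with 1 lower in the former. With low-intron scaling they were 3 and 0, with 1 lower in NK/innate lymphoid-like, fibroblast-like and mural-like cells each, and the between-class test called 1 member. Without doublet removal 1 was higher in fibroblast-like cells, and with thinning 0 there and 1 in T cell-like cells. Leaving out any 1 class left 1 member in the between-class test. Leaving out 1 library at a time gave 3 to 8 members higher in NK, 0 to 4 members higher in T cell, 2 to 7 members higher in endothelial, 0 to 1 members higher in mural and 0 to 5 members whose group effect differs between classes; the highest counts came without deligated replicate 2. Values that changed sign follow as log2 fold changes by class, and no value of changed sign was called except Hspe1 in NK/innate lymphoid-like cells (edgeR adjusted p = 0.036 with low-intron scaling and 0.043 with the trend removed). With low-intron scaling: Hsp90aa1 -0.0811 (NK), -0.0937 (T) and -0.10 (endothelial), Hsp90ab1 -0.17 (NK), -0.25 (T), -0.0562 (endothelial) and -0.10 (fibroblast), Hspe1 -0.26 (NK), -0.26 (T), -0.13 (endothelial) and -0.10 (fibroblast), Hspb1 -0.0237 (T), Hspd1 -0.0882 (T) and -0.17 (fibroblast), Dnajb1 -0.10 (endothelial) and -0.31 (fibroblast), Hspa1a -0.00706 (fibroblast). With the intron trend removed: Hsp90ab1 -0.16 (NK), -0.21 (T), -0.0376 (endothelial) and -0.0641 (fibroblast), Hspe1 -0.26 (NK), -0.23 (T), -0.12 (endothelial) and -0.0796 (fibroblast), Hspb1 -0.0251 (T), Dnajb1 -0.10 (endothelial) and -0.29 (fibroblast), Hsp90aa1 -0.0314 (endothelial), Hspa1a -0.0737 (fibroblast), Hspd1 -0.0521 (fibroblast). With stricter cell limits: Dnajb1 0.008 (T) and 0.17 (mural), Hspb1 0.0273 (endothelial), Hspa8 0.33 (mural), Hsp90aa1 0.0495 (mural), Hsp90ab1 0.0543 (mural), Hspe1 0.24 (mural). With thinning: Hspe1 -0.0315 (NK) and -0.14 (endothelial), Dnajb1 -0.0301 (endothelial), Hsp90aa1 0.11 (fibroblast) and 0.0206 (mural), Hspa1a -0.43 (mural), Hspa8 0.18 (mural), Hsp90ab1 0.0439 (mural). Without doublet removal: Hspb1 0.0117 (endothelial), Hspe1 -0.0127 (endothelial) and 0.0226 (mural), Hspa8 0.0078 (mural), Dnajb1 0.14 (mural). Without the low-count filter: Hspa1a 0.0119 (T), Dnajb1 0.0688 (T), Hspb1 0.00489 (endothelial), Hspa8 0.0229 (mural), Hspe1 0.0288 (mural). With DESeq2: Hspb1 0.00575 (endothelial). With stress genes kept in clustering: Hspb1 0.00463 (endothelial). With 1 library left out: Hspa1a -0.28 to 0.21 (T), Dnajb1 -0.20 to 0.24 (T), -0.22 to 0.29 (fibroblast) and -0.40 to 0.10 (mural), Hspb1 -0.71 to 1.85 (T) and -0.025 to 0.0467 (endothelial), Hsp90ab1 -0.0392 to 0.26 (T), -0.0146 to 0.31 (endothelial) and -0.22 to 0.10 (mural), Hsp90aa1 -0.14 to 0.00701 (fibroblast), Hspa8 -0.0508 to 0.0133 (mural), Hspe1 -0.0606 to 0.0342 (mural). Of these ranges, which rest on 1 library in an arm assumed to vary like the other, only the upper end of Hsp90ab1 in endothelial-like cells was called. The cause of these changes was not tested. The labels do not say whether replicate numbers pair the libraries. Replicate 1 minus 2 correlated at -0.10 to -0.032 between the groups, which cannot show whether libraries were prepared together. With the replicate block 6, 2, 2, 2 and 0 members were higher in NK/innate lymphoid-like, T cell-like, endothelial-like, fibroblast-like and mural-like cells, and Hspa8 in endothelial-like cells lost its call. With the numbers crossed, chosen after the data were seen, 2 members were higher in endothelial-like cells. Shares of all genes were not counted for the block, doublet and thinning fits, so their member counts cannot be set beside such a share. Thinned sums left no value for Hspb1 in T cell-like, Dnajb1 in fibroblast-like and Dnajb1 and Hspa1b in mural-like cells, which the low-count filter removed. Hspa1a and Hspa1b in endothelial-like and Hspa1b and Hspb1 in NK/innate lymphoid-like cells kept direction and call under every alternative run for them. Depth limits mural-like cells most, with 42 and 43 homeostatic UMIs of Hspa1a and Hspa1b together.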
